A study of Drosophila melanogaster with 42 samples.

Results

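TpnC4, fln and SERCA encode proteins of muscle contraction and of its calcium supply, and their transcripts were followed in ageing male Drosophila melanogaster of 2 genotypes. The 3 genes were selected because their level fell steeply with age in these same arrays, so the fall itself is described here and not tested. They are 3 of 9904 genes with a spot of their own name: SERCA had 2 spots, which were averaged, and TpnC4 and fln had 1 each. Per the gene table, TpnC4 is locus CG12408, fln is CG7445 and SERCA, formerly Ca-P60A, is CG3725, and all are protein-coding genes.

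In flight muscle, contraction is switched on by calcium that binds troponin C on the thin filament. TpnC4 is a troponin C isoform of the indirect flight muscle, where stretch as well as calcium activates the fibres. Flightin, the product of fln, binds the thick filament of the same muscle and is needed for its length and stiffness. SERCA is the pump that returns calcium from the cytosol to the sarcoplasmic reticulum, and it acts in many other cells too.

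The head and thorax were taken at 8 ages, on day 5, on days 10 to 50 in steps of 10 days, and on days 70 and 80, from males that carried either Indy206 or the control line 2216, each heterozygous over Canton-S. Indy encodes a citrate transporter, and flies with less of it are known for a long life. Each array compared RNA of 15 males, labelled with Cy5, with 1 Cy3-labelled reference, a pool of control RNA from all ages. There were 42 arrays, 21 per genotype and 2 or 3 per genotype and age. A level below is the log2 ratio of sample to reference, a direction and a base that are likely but not stated, so 0 means the level in the pool and not absence. All the groups share the Canton-S chromosome, and no dye swap was listed.

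Indy, the altered gene, lay between -1.62 and -0.67 on the 21 Indy206 arrays and between -0.49 and 0.11 on the 21 control arrays, and the genotypes did not overlap. Photoreceptor markers (5 of 11 measured) had a median above 0 on 42 of 42 arrays. The median of testis markers (7 of 12) and of accessory gland markers (9 of 12) was below 0 on all 42. Of the 7 testis entries, don was matched through a synonym to svp, a gene that was not on the list. That gene stayed in the testis median and in the covariate used below. Body and flight muscle markers (10 of 16, none of them TpnC4, fln or SERCA) had a median of 0.69 and 1.06 on the control arrays of day 5, 0.86 and 1.00 on the Indy206 arrays of day 5, and -0.36 to 0.57 on the other 38 arrays. Accessory gland markers had a median of -1.61 over the control and -1.58 over the Indy206 arrays of day 5 and of -3.00 over the other 38, and midgut markers (10 of 12) -0.14, 0.21 and -0.72. Less muscle in a sample and less transcript per muscle cell cannot be told apart in these tissue extracts.

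In the control group, the arrays numbered 1 of day 10 and of day 30 stood apart from their labelled ages by the genes that rise with age. The median of the 100 units that rose most with age in Indy206 flies was -0.05 on control day 10 number 1 and -0.79 on number 2. It was -0.84 on control day 30 number 1, the lowest of the 21 control arrays, and -0.27 and -0.43 on numbers 2 and 3. The 100 units that fell most separated these arrays less: their median was -3.47 and -2.99 on control day 10 numbers 1 and 2, below both arrays of day 40, and -2.34, -3.00 and -3.14 on the 3 arrays of day 30. The labels were kept, and values without these 2 arrays are given beside the results for the 3 genes.

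TpnC4 had the largest span of the 3 genes. On control arrays it stood at 2.71 and 2.64 on day 5, -0.01 and 2.09 on day 10, 1.39, 0.77 and 1.64 on day 20, and 1.32, 0.86 and 0.87 on day 30. It then stood at 0.23 and -0.30 on day 40, -0.37, 0.15 and -0.26 on day 50, -0.18, -0.56 and -0.45 on day 70, and -1.58, -1.44 and -1.74 on day 80. The lowest control values were therefore those of day 80, which overlapped no other control age.

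On Indy206 arrays TpnC4 stood at 2.83 and 2.12 on day 5, 1.59 and 2.06 on day 10, 0.70 and 0.25 on day 20, and 0.43, 0.53 and 0.19 on day 30. Later values were -0.79, -0.07 and -0.50 on day 40, -0.57, -0.39 and -0.75 on day 50, -1.60, -0.58 and -1.27 on day 70, and -0.44, -0.73 and -0.98 on day 80. The lowest Indy206 mean was that of day 70, and days 70 and 80 overlapped. Between day 5 and day 80 the mean of TpnC4 fell 19.1-fold in controls, from 2.67 ± 0.05 (SD, n = 2) to -1.58 ± 0.15 (SD, n = 3), and 9.14-fold in Indy206 flies. When the 16 group means were put in order, 13 of the 15 pairs of neighbours overlapped.

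**Figure D1:**
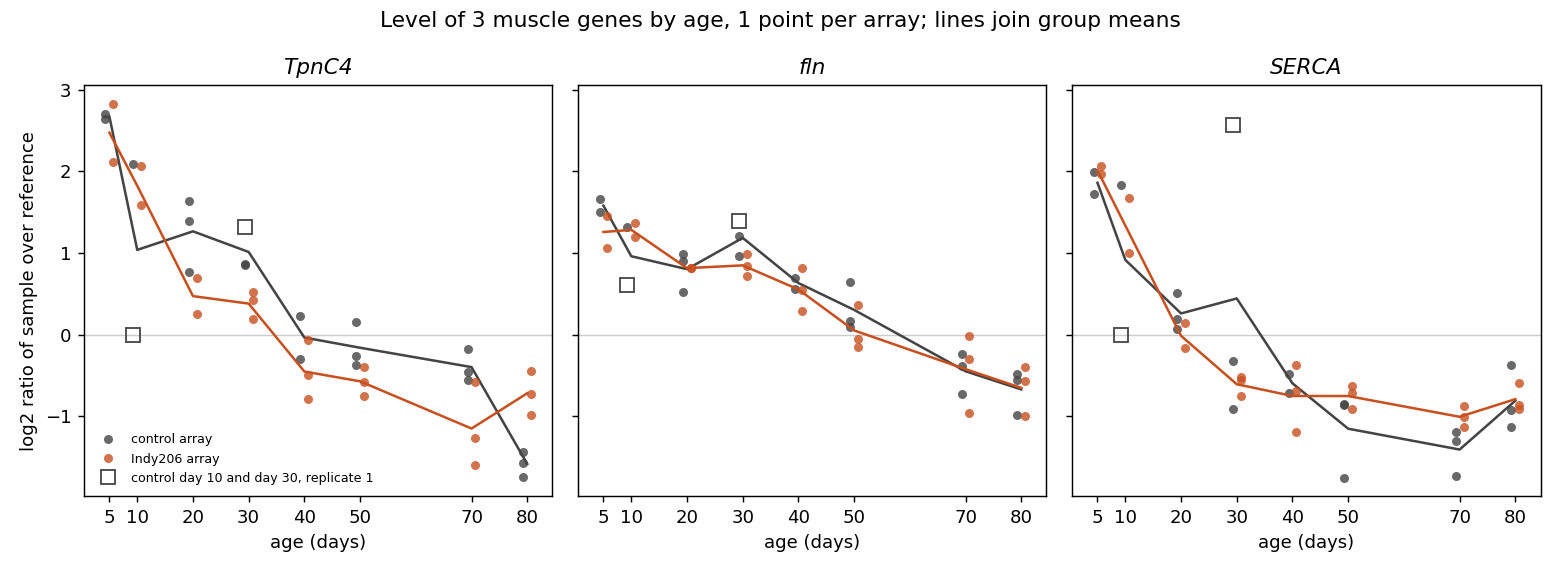
Level of TpnC4, fln and SERCA (log2 ratio of sample to the pooled reference, y axis) against age in days (x axis) on the 42 arrays; points are single arrays, lines join the group means of each genotype, and open squares are the 2 control arrays that stood apart from their labelled ages. SERCA lies below 0 on all 23 arrays from day 40 on, TpnC4 on 21 of them and fln on 14.

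Flightin transcripts kept a high level longer. On control arrays fln stood at 1.499 and 1.66 on day 5, 0.61 and 1.32 on day 10, 0.91, 0.98 and 0.52 on day 20, and 1.39, 0.96 and 1.20 on day 30. It stood at 0.57 and 0.70 on day 40, 0.10, 0.17 and 0.64 on day 50, -0.73, -0.23 and -0.39 on day 70, and -0.98, -0.48 and -0.55 on day 80. All control arrays up to day 50 were thus above the level of the pool and all later ones below it.

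On Indy206 arrays fln stood at 1.46 and 1.06 on day 5, 1.20 and 1.37 on day 10, 0.82 and 0.81 on day 20, and 0.99, 0.84 and 0.71 on day 30. It stood at 0.30, 0.82 and 0.54 on day 40, -0.15, -0.05 and 0.36 on day 50, -0.96, -0.30 and -0.01 on day 70, and -0.56, -0.39 and -0.997 on day 80. The Indy206 values of days 20 to 40 overlapped. From day 5 to day 80 the mean fell 4.76-fold in controls and 3.76-fold in Indy206 flies. Among the 16 ordered group means of fln, 14 of 15 neighbouring pairs overlapped.

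SERCA was high on day 5 and near its day 80 level by day 30, apart from the array numbered 1 of control day 30. Its control means of days 50 and 70, -1.15 and -1.41, lay lower than that of day 80, -0.81. On control arrays it stood at 2.00 and 1.73 on day 5, -0.0018 and 1.83 on day 10, 0.19, 0.52 and 0.08 on day 20, and 2.57, -0.92 and -0.33 on day 30. It stood at -0.48 and -0.71 on day 40, -0.85, -0.86 and -1.75 on day 50, -1.19, -1.73 and -1.30 on day 70, and -0.37, -0.93 and -1.13 on day 80. The highest SERCA value of all 42 arrays was that of the day 30 array numbered 1.

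On Indy206 arrays SERCA stood at 2.06 and 1.97 on day 5, 1.67 and 1.00 on day 10, -0.17 and 0.14 on day 20, and -0.55, -0.51 and -0.75 on day 30. It stood at -0.37, -1.20 and -0.69 on day 40, -0.63, -0.71 and -0.91 on day 50, -0.88, -1.13 and -1.01 on day 70, and -0.92, -0.87 and -0.59 on day 80. In Indy206 flies each age from day 30 on overlapped the next one sampled, and none of these values reached those of day 20. From day 5 to day 80 the mean fell 6.36-fold in controls and 6.98-fold in Indy206 flies. The 2 SERCA spots differed by a median of 0.119 and lay within 0.3 of each other on 40 of 42 arrays. Of the 15 neighbouring pairs of ordered SERCA means, 13 overlapped.

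Fitted as a straight line over both genotypes, the level of TpnC4 fell by 0.43 ± 0.025 (SE) per 10 days, that of SERCA by 0.35 ± 0.038 and that of fln by 0.27 ± 0.017. With the 2 control arrays left out the slopes were -0.46, -0.37 and -0.28. By this slope TpnC4 was the 4th, SERCA the 9th and fln the 16th steepest falling of 9904 genes. Of all 19077 units tested (named genes and unnamed spots), 15.1% fell and 10.1% rose with age at an adjusted p under 0.05. The slope chose the genes, so nothing is read from these ranks.

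The courses of the fall differed between the genes. In Indy206 flies the mean of SERCA fell early and lay between -0.61 and -1.01 from day 30 on. In controls it did not level, and stood at -1.15 on day 50, -1.41 on day 70 and -0.81 on day 80. The mean of TpnC4 fell more slowly after day 30 in Indy206 flies, to -1.15 on day 70 and -0.72 on day 80. In controls TpnC4 made a large late step, from -0.40 on day 70 to -1.58 on day 80. In both genotypes fln fell mostly after day 30. In Indy206 flies SERCA had made 93.5% of its change between day 5 and day 80 by day 30, TpnC4 65.6% and fln 21.4%. In controls the shares were 53.1% for SERCA, 39.0% for TpnC4 and 17.6% for fln, and without the 2 arrays that stood apart from their labels 93.0%, 42.6% and 22.1%.

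**Figure D2:**
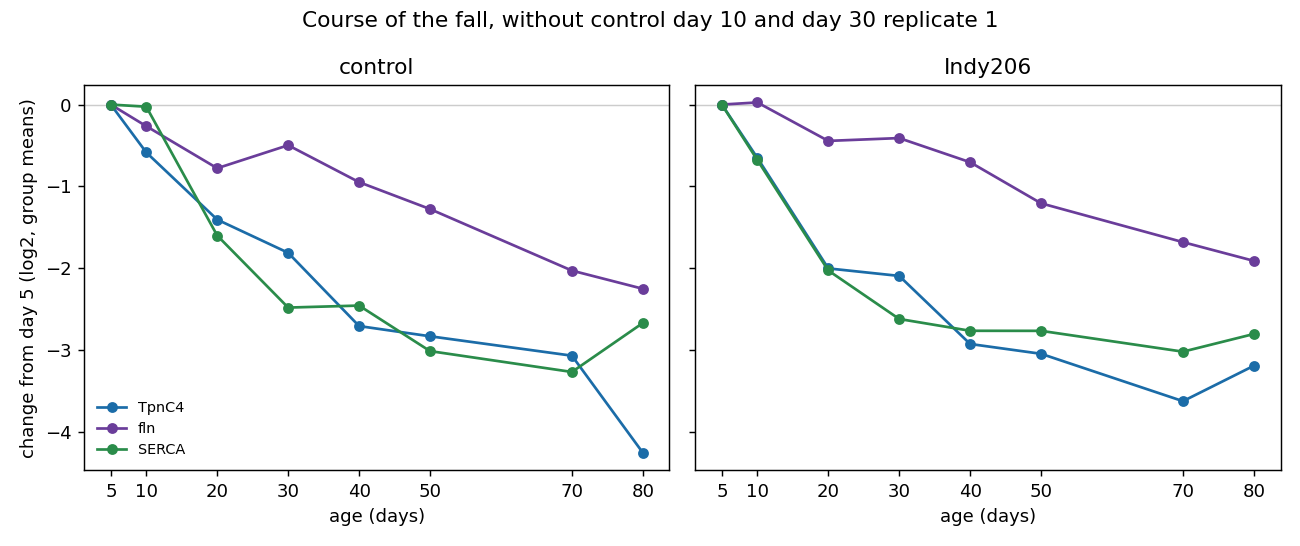
Change of the group mean from day 5 (log2, y axis) against age in days (x axis) for TpnC4, fln and SERCA, with controls and Indy206 flies in separate panels, without the 2 control arrays that stood apart from their labelled ages. Over both genotypes SERCA had made 93.2% of its change between day 5 and day 80 by day 30, TpnC4 52.5% and fln 21.8%.

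Bending was tested as the quadratic term of the group means on age, which is positive where a fall slows with age. Under this design its estimate correlates at -0.13 with that of the slope. The genes and tests were chosen with earlier results of these data known, so the term is not independent of that choice. The term was 0.090 ± 0.018 (SE) for SERCA, in log2 units per squared 10 days, with an adjusted p of 0.0061 from limma over all units. For TpnC4 it was 0.055 ± 0.012, with an adjusted p of 0.012 from limma. For fln it was -0.012 ± 0.0078, with a limma adjusted p of 0.61 and a 95% interval of -0.028 to 0.0040. Without the 2 control arrays the term was 0.11 for SERCA, 0.065 for TpnC4 and -0.0080 for fln. Among all units 0.629% were called above 0 and 0.613% below 0.

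The bend of SERCA exceeded that of fln by 0.10 (95% interval 0.064 to 0.14) and that of TpnC4 exceeded that of fln by 0.067 (0.044 to 0.090). SERCA and TpnC4 differed by 0.035, with an interval of -0.00097 to 0.071 that included 0; without the 2 arrays the difference was 0.044 (0.016 to 0.072), and the other differences were 0.12 and 0.073. These are the 3 possible pairs and the intervals are not adjusted over them. In Indy206 flies alone the term was 0.092 for TpnC4 (95% interval 0.058 to 0.13) and 0.11 for SERCA (0.056 to 0.16), and in controls alone 0.018 for TpnC4 (-0.016 to 0.053) and 0.074 for SERCA (0.022 to 0.13). Without the 2 arrays the control values were 0.038 (0.011 to 0.065) and 0.11 (0.086 to 0.14); the difference between genotypes in this term was not tested. Both calls rest on day 5. Without its arrays, over a shorter range of ages, the term was 0.077 for SERCA (95% interval 0.030 to 0.12, limma adjusted p = 0.36). For TpnC4 it was then 0.030 (-0.00028 to 0.060, limma adjusted p = 0.82). In that fit 7 of all units were called. Muscle, accessory gland and midgut markers also had higher medians on day 5, as given above, and their part in the bend was not tested.

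Genotype was compared to ask what the Indy206 allele does to transcripts with age, and none of the 3 genes differed between Indy206 and control flies at the threshold. Averaged over ages, Indy206 minus control was -0.19 ± 0.13 (SE) for TpnC4 with a 95% interval of -0.45 to 0.067, -0.076 ± 0.085 for fln with an interval of -0.25 to 0.097, and -0.011 ± 0.19 for SERCA with an interval of -0.40 to 0.38. The limma adjusted p-values were 0.91, 0.97 and 1.00. Of all units 0.351% were called. Without the 2 control arrays the TpnC4 difference was -0.31 ± 0.099, with a limma adjusted p of 0.27, that of fln was -0.11 and that of SERCA 0.0074.

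At single ages the spread left wide intervals. For TpnC4 Indy206 minus control was -0.79 on day 20, -0.75 on day 70 and 0.87 on day 80. The limma adjusted p-values at these ages were 1.00, 0.47 and 0.69. Indy206 arrays lay wholly below the control arrays for TpnC4 on days 20, 30, 50 and 70, and wholly above them on day 80. For fln they lay below on day 5 and for SERCA above on day 70, and the genotypes overlapped at the other 7 ages of each. Groups held 2 or 3 arrays, and how many of all units separate in this way was not counted. Nothing is therefore read from these separations. On day 10 the differences were 0.79 for TpnC4, 0.32 for fln and 0.42 for SERCA with all arrays, and turned to -0.26, -0.033 and -0.50 without the 2 control arrays. SERCA differed by -1.05 on day 30 (limma adjusted p = 0.75), and by 0.014 without the 2 arrays that stood apart from their labels. Across the 8 ages together 0.038% of all tests were called, none of them one of the 3 genes.

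**Figure D3:**
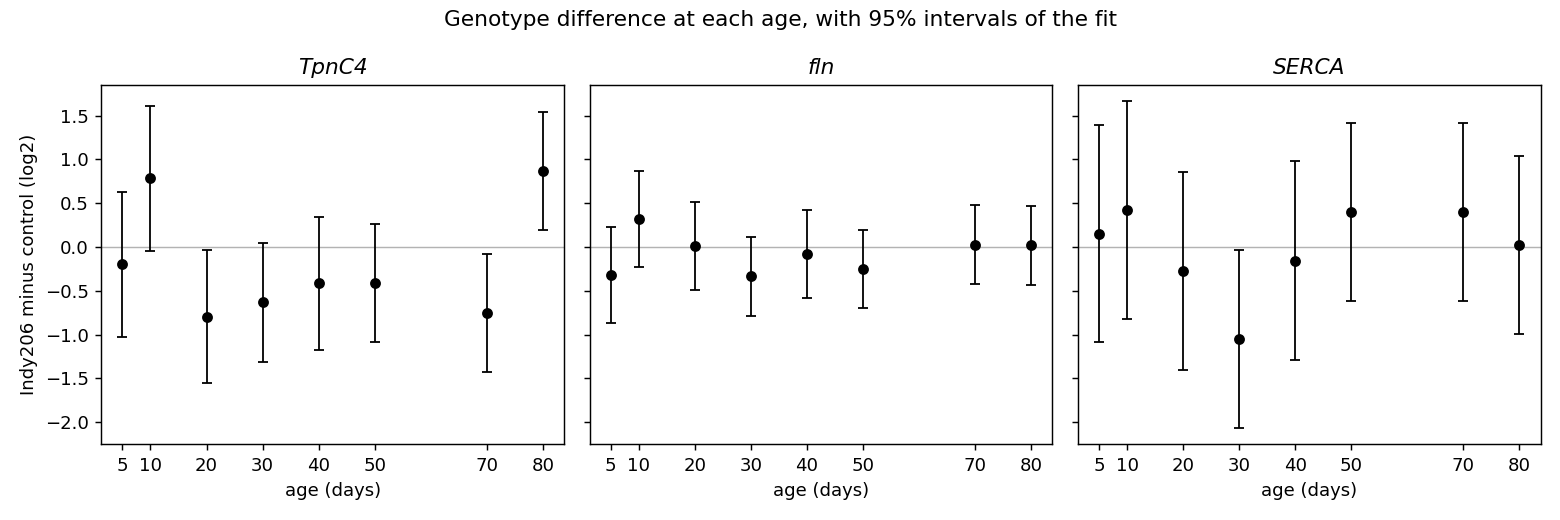
Difference in level between Indy206 and control flies (log2, y axis) at each of the 8 ages in days (x axis) for TpnC4, fln and SERCA, with the 95% interval of the fit as bars. TpnC4 is above 0 on day 80 at 0.87 and below 0 on day 70 at -0.75, and the other intervals that leave out 0 are TpnC4 on day 20 and SERCA on day 30.

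The difference in the rate of the fall between genotypes was not called for any of the 3 genes. The slope of TpnC4 was -0.44 per 10 days in controls and -0.42 in Indy206 flies, a difference of 0.020 with a 95% interval of -0.082 to 0.12. For fln the slopes were -0.27 in both, with a difference of 0.0050 (-0.063 to 0.073), and for SERCA -0.36 and -0.34, with a difference of 0.028 (-0.13 to 0.18). The limma adjusted p-values were 0.96, 0.99 and 0.97. Without the 2 control arrays the control slopes were -0.497 for TpnC4, -0.29 for fln and -0.397 for SERCA. The differences were then 0.075 for TpnC4 (-0.0049 to 0.15), 0.023 for fln (-0.046 to 0.091) and 0.061 for SERCA (-0.015 to 0.14). Their limma adjusted p-values were 0.84, 0.92 and 0.84. Of all units 0% were called by limma, that is 0 of 19077, with 1065 at an unadjusted p under 0.05; 30 were called without the 2 control arrays, none of them one of the 3 genes.

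Within groups, where age and genotype are removed, no pair of the 3 genes passed over all arrays. Over 42 arrays the deviations from the group mean gave a Pearson r of 0.39 for TpnC4 and fln (permutation p = 0.19, adjusted over 3 pairs 0.50), with a Spearman rho of 0.32 (permutation p = 0.15, adjusted 0.41). TpnC4 and SERCA gave an r of 0.33 (permutation p = 0.33, adjusted 0.50) and a rho of 0.0022 (permutation p = 0.99, adjusted 0.99). For fln and SERCA r was 0.067 (permutation p = 0.74, adjusted 0.74) and rho -0.23 (permutation p = 0.28, adjusted 0.41).

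These values rest on few arrays. Leaving out the 2 arrays farthest from the median on the x axis gave an r of 0.22, 0.092 and 0.098 in the same order. Without the 2 control arrays that stood apart from their labels, fln and SERCA gave an r of -0.52 over 40 arrays (permutation p = 0.0040, adjusted 0.012), and in Indy206 arrays alone -0.53 over 21 (permutation p = 0.0095, adjusted 0.029). On those 40 arrays the middle 95% of the correlations with 9901 other genes ran from -0.55 to 0.64 for SERCA and from -0.44 to 0.46 for fln. The value of -0.52 thus lies inside the range of SERCA and outside that of fln. In Indy206 arrays alone TpnC4 and fln gave an r of 0.55 (permutation p = 0.092, adjusted 0.092) and a rho of 0.59 (permutation p = 0.039, adjusted 0.039). TpnC4 and SERCA gave -0.57 there (permutation p = 0.025, adjusted 0.038). For fln and SERCA in control arrays alone, r was 0.27 over 21 arrays (permutation p = 0.43, adjusted 0.65). Within groups of 2 the deviations mirror each other.

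The genes with the most similar group means differed between the 3. Likeness was Pearson's r over the 16 group means, which share age and the reference, and is given as a description. For TpnC4 they were ATPsynO at 0.975, ATPsynE at 0.955, mAcon1 at 0.954, Nplp3 at 0.952, ND-ACP at 0.951 and ATPsynbeta at 0.951. ATPsynO, ATPsynE and ATPsynbeta are subunits of the mitochondrial ATP synthase, mAcon1 is mitochondrial aconitase and ND-ACP is an acyl carrier protein of complex I. For fln they were CG10307 at 0.971, AQP at 0.970, CG7920 at 0.970, CG14022 at 0.969, Cln3 at 0.968 and Cox10 at 0.962. For SERCA they were CG5177 at 0.948, Pfk (phosphofructokinase, of glycolysis) at 0.948, Fhos at 0.942, CG7409 at 0.941, CG9297 at 0.940 and CG12374 at 0.938. Among themselves TpnC4 and SERCA had an r of 0.92, TpnC4 and fln 0.90, and fln and SERCA 0.81. The similar genes were picked with all arrays. Without the 2 control arrays CG5177 stood at 0.88 with SERCA and ATPsynE at 0.914 with TpnC4. The rest of the similar genes then lay between 0.926 (ND-ACP) and 0.979 (ATPsynO).

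Other muscle genes moved in both directions. Of 78 listed genes other than these 3, 48 were measured; 22 fell and 8 rose with age at an adjusted p under 0.05 in limma, beside 15.1% and 10.1% of all units. With the 2 control arrays left out 23 fell and 7 rose, while 15 fell and 11 rose without day 5. Slopes called over all units, in either direction, went from 4798 to 2938 without day 5, beside these counts and those by list below. The count over all units without the 2 arrays is not given here, nor are shares over named genes alone. The median slope of the 48 listed genes was -0.030 per 10 days, and that of all named genes -0.0074. Of the thin filament genes, 3 of 9 rose and 3 fell, while 5 rose and 2 fell without day 5. The other flight muscle troponin C, TpnC41C, fell by 0.22 (limma adjusted p = 1.3e-08), tropomodulin (tmod, which caps thin filaments) by 0.055, and the actin genes Act87E and Act88F rose by 0.084 and 0.052. Of the thick filament genes 4 of 6 fell and none rose, while 2 fell and 1 rose without day 5. Projectin (bt), an elastic protein between thick filament and Z disc, fell by 0.16, myofilin (Mf) by 0.14, the myosin light chain Mlc1 by 0.080 and Strn-Mlck, of the giant myosin light chain kinase family, by 0.041, the calls of Mlc1 and Strn-Mlck being lost without day 5.

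At the Z disc 4 of 11 genes rose and 4 fell. Zasp66, a structural Z disc protein, fell by 0.14 (limma adjusted p = 4.0e-13), while Mlp60A rose by 0.075, rhea (talin, which links integrins to actin) by 0.064 and cpa (an actin-capping subunit) by 0.044. For calcium release and entry 2 of 6 fell, the release channel RyR by 0.081 and the store-operated channel Orai by 0.058, while cac, a voltage-gated calcium channel, and Itpr, the IP3 receptor, stood at -0.017 and 0.013 without passing. For calcium removal and buffering 2 of 8 fell and 1 rose. Calx, the sodium-calcium exchanger, fell by 0.060 and Scp2, a sarcoplasmic calcium-binding protein, by 0.039, while CanA1, a calcineurin subunit, rose by 0.077, and Cbp53E, a calbindin, stood at -0.038 without passing. Of the energy supply genes 5 of 5 measured fell: Gpdh1 (glycerol-3-phosphate dehydrogenase) and Ald1 (aldolase) by 0.16 each, Argk1 (arginine kinase) by 0.14 and colt (a mitochondrial carnitine carrier) by 0.078 among them. Of 3 measured transcription factors vg fell by 0.035 and ap by 0.026, and E2f1 stood at -0.0036. Without day 5 the calls of Scp2, vg and ap were lost.

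**Figure D4:**
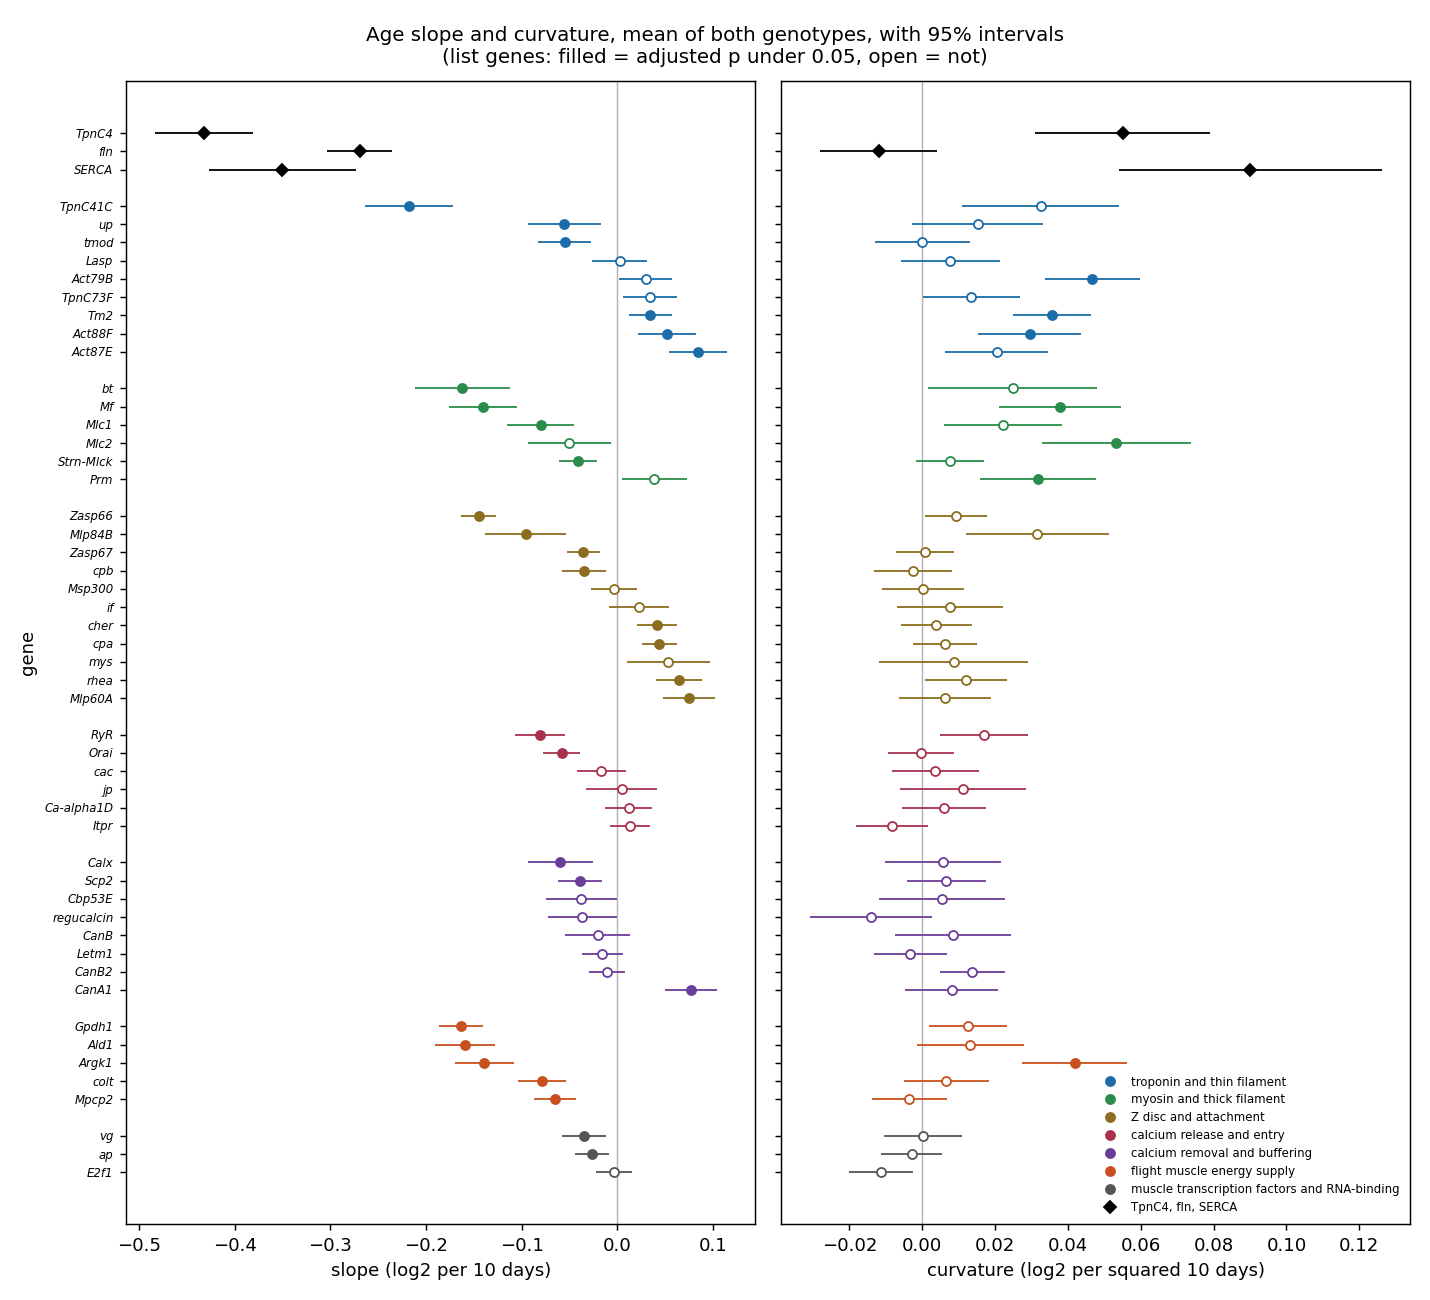
Age slope (log2 per 10 days, left) and bend (curvature, log2 per squared 10 days, right) of the 48 measured muscle and calcium genes by list, with 95% intervals as bars and filled points for an adjusted p under 0.05; TpnC4, fln and SERCA, selected on the slope, are black diamonds. The slopes of the listed genes run from -0.22 for TpnC41C to 0.084 for Act87E, against -0.43 for TpnC4.

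Bending was called above 0 for 7 of the 48 listed genes and below 0 for 0, against 0.629% and 0.613% of all units. All units include unnamed spots, and shares over named genes alone are not given here. Without the 2 arrays 11 of the listed genes were called above 0, while 2.4% of all units were called either way. Without day 5 0 of the listed genes were called, beside 7 of all units. The 7 listed genes called over all arrays were Act79B at 0.047, Act88F at 0.029, Tm2 (tropomyosin) at 0.036, the myosin light chain Mlc2 at 0.053, Prm (paramyosin) at 0.032, Mf at 0.038 and Argk1 at 0.042. All 7 are also among the muscle markers whose medians are given above, and the other measured muscle markers are listed genes too. The day 5 medians of the muscle markers and these bends are therefore not separate observations. The call of Prm was lost in 11 of the 42 fits without 1 array and that of Act88F in 4. In 5 of the 7, Act79B, Act88F, Tm2, Mlc2 and Prm, the mean of day 30 lay below those of day 5 and of day 80 in both genotypes. Act79B, for example, had Indy206 means of 0.67 on day 5, -0.37 on day 30 and 0.39 on day 80. None of the 48 was called between the genotypes on average, and 0 for the difference in slope. Without the 2 control arrays 1 energy supply gene was called lower in Indy206 flies, while 0.687% of all units were called either way.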

How the data were processed

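Transcripts of the head and thorax were measured on 42 two-colour arrays. Each deposited value is the log2 ratio of a spot; limma made these values, per the submitters' processing notes, with no version. Their background correction, normalization, base and direction were not stated in the sources. Array medians lay between -0.014 and 0.0019, so no further normalization was applied. Spots were named from the platform annotation: 10827 of 20000 had 1 gene, 227 several and 8946 none. Spots of 1 gene were averaged, giving 19077 units. Signal over background is not known, and the number of arrays limits the precision.

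A model with 16 group means was fitted in R 4.3.3 using limma 3.58.1 (lmFit, eBayes), with 26 residual degrees of freedom. Each contrast had its own Benjamini-Hochberg adjustment, and an adjusted p under 0.05 was a call. Correlations within groups used 100000 two-sided permutations in Python 3.11.15. The model was tested on simulated data. Replicates are separate samples of 15 males. The genes, lists and tests were chosen with earlier results of these data known. Named from each list were up to 4 genes of smallest slope p and any called for genotype, slope difference or bend; likeness names the 6 highest genes.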

Additional observations from a re-analysis of the deposited data

How the results depend on the processing

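The 3 genes were selected for their fall in these same arrays, so its values under the alternatives are a description and no test. The fall kept its direction under every alternative run. The slope of TpnC4 was -0.39 with quantile normalization, -0.36 without day 5, -0.41 with a testis and accessory gland covariate and -0.46 without the 2 control arrays that stood apart from their labels, an exclusion chosen after seeing the data. For fln it was -0.25 with quantile normalization and -0.25 with the covariate, and for SERCA -0.27 without day 5 and -0.29 with the covariate. The bend lost its call without day 5, at 0.030 for TpnC4 and 0.077 for SERCA. It kept it under the other alternatives run for it, which did not include the covariate, and in all 42 fits that left out 1 array, with limma adjusted p-values of at most 0.049 for TpnC4 and 0.021 for SERCA. The genotype difference of SERCA, close to 0, turned sign at 0.010 with arrays scaled to a common spread, 0.049 with array weights, 0.010 with the covariate and 0.0074 without the 2 arrays, and ran from -0.13 to 0.12 when 1 array was left out. Its day 30 difference turned to 0.014 without the 2 arrays and ran from -1.73 to 0.014 when 1 array was left out. The slope difference of fln was -0.017 without day 5. With 1 array left out the slope difference ran from -0.036 to 0.077 for TpnC4, -0.014 to 0.024 for fln and -0.022 to 0.078 for SERCA, and the slope of TpnC4 from -0.46 to -0.40.

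Counts over all units moved more. Bends called were 237, and 741 with quantile normalization, 636 with array weights, 458 without the 2 arrays and 7 without day 5, with 149 to 425 when 1 array was left out. Genotype calls summed over ages were 58, and 175, 123 and 144 under the first 3 of these, 2 with each age fitted alone and 39 to 163 with 1 array left out. Average genotype calls went from 67 to 131 without the 2 arrays. Slope differences called were 0, and 4 with array weights, 30 without the 2 arrays and 0 to 23 with 1 array left out. Slopes called went from 4798 to 2938 without day 5 and 2440 with the covariate.

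Within groups TpnC4 and fln gave -0.49 in controls without the 2 arrays. TpnC4 and SERCA gave -0.24 without the 2 arrays and -0.57 in Indy206 arrays. For fln and SERCA r was -0.52 without the 2 arrays, -0.54 in controls without them and -0.53 in Indy206 arrays, and -0.13 to 0.14 when 1 array was left out. The cause of these changes was not tested. Deviations of same-numbered arrays correlated at -0.35 to 0.62 (median 0.12), over 0.1 in 13 of 19 pairs, and those of differently numbered arrays over 0.1 in 10 of 37 pairs (median -0.091). The numbers were not used to pair samples in the main fit. Whether same-numbered arrays shared a batch was not tested, and a fit with the number as a block follows. With the replicate number as a block the bend was 0.055 for TpnC4 and 0.089 for SERCA, 233 units bent, 69 differed by genotype and no call for the 3 genes changed. For the listed genes called for slope or bend, each call was checked under each alternative run for it, apart from fits without 1 array. Of these checks 22 lost the call, 304 kept it and 0 reversed. With 1 array left out the bend call of Prm was lost in 11 of 42 fits and the slope call of up in 5.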
